A study of Homo sapiens with 40 samples.

Results

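Polysomal RNA was compared with the RNA of lighter gradient fractions in HEK293 cells, an established line from human embryonic kidney, that had been transfected with siRNA against CNOT1. The comparison was defined by the labels alone: 4 libraries of pooled fractions 6 to 11 (polysomal) against 4 libraries of pooled fractions 1 to 5 (subpolysomal), all labelled CNOT1 siRNA, which makes 8 of the 40 libraries of the series. Cells given control siRNA went through the same gradients, with 4 libraries in each fraction, and are used below as the reference. Every cell in the comparison, control cells included, had received an siRNA, and every lysate held cycloheximide and was cleared of nuclei before the gradient. The labels number the libraries of each group 1 to 4 but do not say whether these came from separate cultures, so the errors and p-values measure the spread between libraries, which may be technical. The study's methods give each library the same mass of RNA. A log2 ratio of 0 therefore means the same level in both libraries after the scaling of totals given below. It does not mean the same amount of mRNA in both parts of the gradient.

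An mRNA that is being translated carries several ribosomes at once and sinks deep into a sucrose gradient, whereas an mRNA with no ribosome or a single one stays among the lighter fractions. CNOT1 is the scaffold of the Ccr4-Not complex, which holds the deadenylases that shorten poly(A) tails and is recruited to mRNAs by microRNA and other repressor complexes, where it also represses translation. Ribosomal protein mRNAs belong to a class with a 5′ terminal oligopyrimidine tract (TOP), a start of C followed by a run of pyrimidines, whose translation is switched on and off as a group.

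Total counts were 23.01 to 25.17 M in the polysomal and 15.9 to 27.3 M in the subpolysomal libraries (M, mega), over 55765 gene symbols. Of 12 genes listed as typical of HEK293 cells, 9 reached 1 CPM (count per M counts) in all 8 libraries. PAX2, PAX8 and HOXC10 did not. All 9 markers of leukocytes, endothelium, hepatocytes, muscle, lung and astrocytes that were looked up stayed under 1 CPM, with a summed level of 0.372 to 1.20 CPM per library. Library totals were corrected by TMM (trimmed mean of M values) before CPM were computed.

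The targeted gene was examined first, because it checks the labels. CNOT1 (chr16:58553855-58663789) was at 89.6, 82.8, 73.5 and 77.4 CPM in subpolysomal libraries 1 to 4 with CNOT1 siRNA, against 310.5, 317, 256 and 235 CPM with control siRNA. In polysomal libraries 1 to 4 it was at 29, 24, 631 and 31.6 CPM with CNOT1 siRNA and 469.9, 501, 28.3 and 479 CPM with control siRNA. The library labelled CNOT1 siRNA polysomal replicate 3 thus held more CNOT1 than any of the 8 control fraction libraries, and the one labelled as polysomal replicate 3 of control siRNA held about as little as the other knockdown polysomes. With all libraries, the polysomal/subpolysomal log2 fold change of CNOT1 was 1.15 (SE 0.73, FDR 0.17). Without the library labelled CNOT1 siRNA polysomal replicate 3 it was -1.51 (SE 0.46, FDR 0.0061), so that the direction of this value rested on 1 library. In bulk libraries fewer cells with the mRNA and less of it per cell cannot be told apart.

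**Figure D1:**
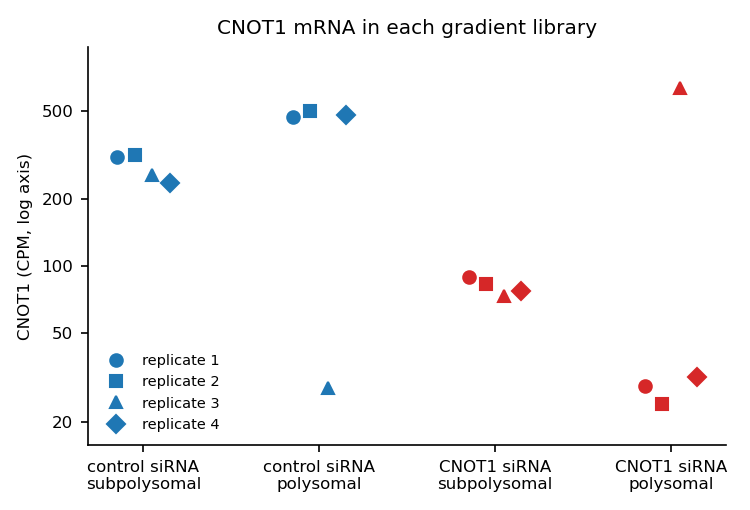
CNOT1 in the 16 control and CNOT1 siRNA fraction libraries, in CPM on a log axis, with 1 marker per library and the marker shape giving the replicate number. Both polysomal libraries numbered 3 lie opposite the rest of their groups, at 28.3 CPM with control siRNA and 631 CPM with CNOT1 siRNA.

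The same library also stood apart over other genes. Its log CPM correlated at 0.988 to 0.992 with control siRNA polysomal libraries 1, 2 and 4, at 0.979 with control siRNA polysomal library 3 and at 0.978 to 0.983 with the other CNOT1 siRNA polysomal libraries. The library labelled control siRNA polysomal replicate 3 showed the reverse. It correlated at 0.989 to 0.992 with CNOT1 siRNA polysomal libraries 1, 2 and 4 and at 0.975 to 0.977 with control siRNA polysomal libraries 1, 2 and 4. Of 9272 genes at 10 CPM or more, CNOT1 left out, 1008 had 1 CNOT1 siRNA polysomal library set apart by Dixon's criterion. In 893 of them (88.6%) it was replicate 3. No sample was moved to another group. Values are therefore given with all libraries and, for most results, again without polysomal replicate 3 of CNOT1 siRNA.

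Subpolysomal libraries 1 and 2 differed from 3 and 4 as well. Within these pairs log CPM correlated at 0.994 and 0.989, and between them at 0.980 to 0.986. A gene's deviation from its group mean correlated across genes with the GC content of the third position of codons, at rho -0.56 and -0.61 in subpolysomal libraries 1 and 2 and 0.47 and 0.62 in libraries 3 and 4. The subpolysomal libraries of control cells showed the same split, at -0.68, -0.65, 0.63 and 0.64. The part of this split in any result below was not tested, but the counts were also computed from libraries 1 and 2 alone and from libraries 3 and 4 alone.

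The test with edgeR over the 24 libraries of the gradient experiment covered 16776 genes. Of these, 5719 (34.1%) had the higher scaled level in polysomal and 5817 (34.7%) in subpolysomal RNA, at an FDR under 0.05. Without polysomal replicate 3, 5858 of 17121 genes (34.2%) were higher and 5904 (34.5%) lower. Of the genes called with all libraries, 5485 of 5719 and 5467 of 5817 remained called in the same direction, and 0 were called in the opposite one. The values of the polysomal and subpolysomal libraries did not overlap for 4755 genes higher (28.3%) and 4870 genes lower (29%) in polysomal RNA. The balance of the directions depends on the scaling: with upper quartile factors 4293 genes were higher and 7257 lower, and with library totals alone 4014 and 7476. These scalings set the median log2 fold change of all genes at -0.27 and -0.31 in place of -0.01, and the changes below are relative to a median near 0.

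The direction followed the kind of transcript. Of 13335 protein-coding genes tested, 5506 were higher and 3435 lower in polysomal RNA, with a median log2 fold change of 0.20. Of 571 genes annotated as long noncoding RNA (lncRNA), 14 were higher and 456 lower, with a median of -1.44 with all libraries and -1.50 without replicate 3. Among coding genes, mRNAs of large secreted, membrane and cytoskeletal proteins and of the proteasome lay toward the polysomal end, and those of ribosomal proteins, histones and zinc finger proteins toward the subpolysomal end. Each of these groups is described below by its counts and its median, since the lists were chosen with results of these data known. In the sentences below, the first fold change of a gene is with all libraries and the second without polysomal replicate 3. Fold changes are polysomal over subpolysomal on the log2 scale.

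**Figure D2:**
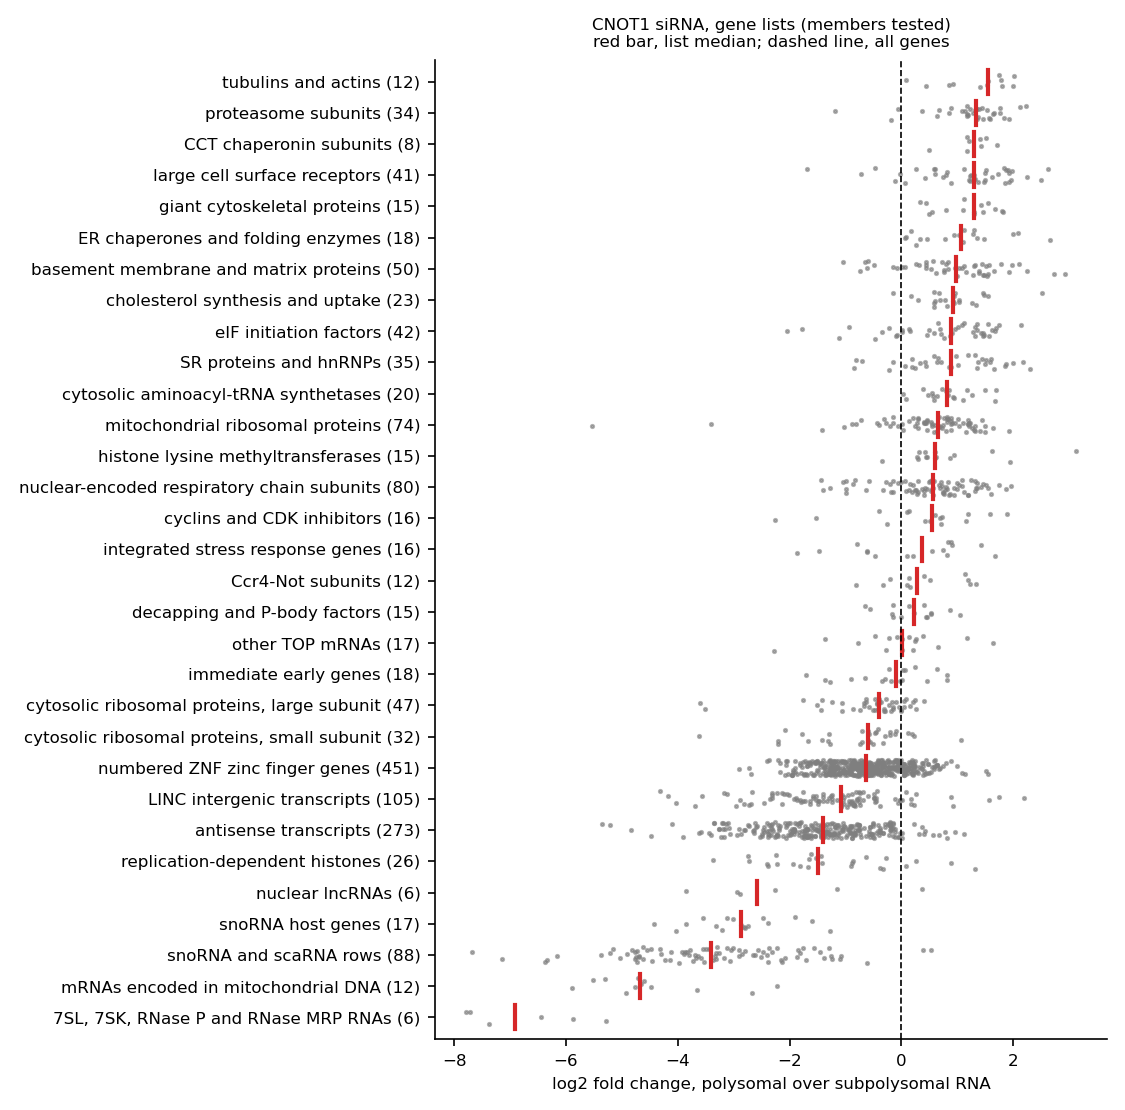
Log2 fold change, polysomal over subpolysomal RNA with CNOT1 siRNA, of each tested member of 31 gene lists (dots), with the list median (red bar) and the median of all genes tested (dashed line). Medians run from -6.91 for the 7SL, 7SK, RNase P and RNase MRP RNAs to 1.54 for tubulins and actins, and the ribosomal protein lists lie below the dashed line.

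Among genes at 10 CPM or more in polysomal RNA whose groups did not overlap, the largest increase was that of KMT2D (chr12:49412758-49454577), which encodes a large histone H3 lysine methyltransferase. It was at 228, 230.5, 245 and 179 CPM in polysomal libraries 1 to 4 and at 21.2, 17.6, 40.2 and 22.1 CPM in subpolysomal libraries 1 to 4. All 4 polysomal values lay far above all 4 subpolysomal ones, and the log2 fold change was 3.13 (SE 0.22, FDR 7.2e-12), or 3.09 without replicate 3. Both chains of the main basement membrane collagen were also among the 12 largest increases. COL4A1 (chr13:110801310-110959504), the alpha 1 chain of type IV collagen, was at 95.9, 94.2, 156 and 97.8 CPM in polysomal and 12.3, 13.6, 19 and 13.5 CPM in subpolysomal libraries, a log2 fold change of 2.93 (SE 0.17) or 2.73. Its partner chain COL4A2, transcribed from the opposite strand beside it, was at 86.2, 82.3, 154 and 72.8 against 10.5, 10.8, 22.9 and 15.6 CPM, 2.73 (SE 0.30) or 2.45. For both collagens polysomal library 3 was the highest by over 50 CPM, and the groups did not overlap with or without it.

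Several membrane and secretory pathway genes were in the same set. PDIA3 (chr15:44038592-44065477), a disulfide isomerase of the endoplasmic reticulum, was at 497, 477, 603 and 504 CPM in polysomal and 75.6, 84.9, 96.2 and 72.8 CPM in subpolysomal libraries, a log2 fold change of 2.66 (SE 0.12, FDR 1.4e-14) or 2.59. NOTCH2 (chr1:120454176-120643366), a receptor for ligands on neighbouring cells, was at 424, 385, 418 and 349 against 72.5, 65.1, 78.8 and 63.1 CPM, 2.50 (SE 0.13) or 2.48. FAT1, a giant protocadherin, was at 256, 207, 348 and 245 against 41.7, 27.9, 66.9 and 34.7 CPM, 2.63 (SE 0.26) or 2.48. The lowest polysomal library exceeded the highest subpolysomal one for each of these. RAB7A (chr3:128412512-128544785), the GTPase of late endosomes, had the smallest error of the group: 349, 383, 364 and 370.0 against 59.7, 69.2, 68.4 and 57.5 CPM, 2.52 (SE 0.10, FDR 2.1e-15) or 2.54. Its coding sequence of 624 nt was the shortest among the 12 genes with the largest increases, whose coding lengths reached 16614 nt with a median of 3507 nt.

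The remaining genes of that set covered other functions. TOP2B, a DNA topoisomerase, was at 319.9, 295, 395 and 309 against 49.2, 46.8, 59 and 35 CPM (2.80, SE 0.14, or 2.71). NCL, the nucleolar protein nucleolin, was at 2955, 3137, 2584 and 2898 against 649.9, 693, 419.6 and 357 CPM (2.45, SE 0.18, or 2.51). CTSL, a lysosomal protease, was at 79.6, 74.3, 60.4 and 94.1 against 13, 11.4, 14.2 and 12.7 CPM (2.59, SE 0.16, or 2.70). Among the less abundant ones, the log2 fold changes were 3.01 (SE 0.23) for the placenta-associated gene PLAC1 and 2.49 (SE 0.15) for SMOC1, a secreted calcium-binding matrix protein. None of these 12 genes lost its call without replicate 3, and their polysomal and subpolysomal values did not overlap, which their selection required.

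**Figure D3:**
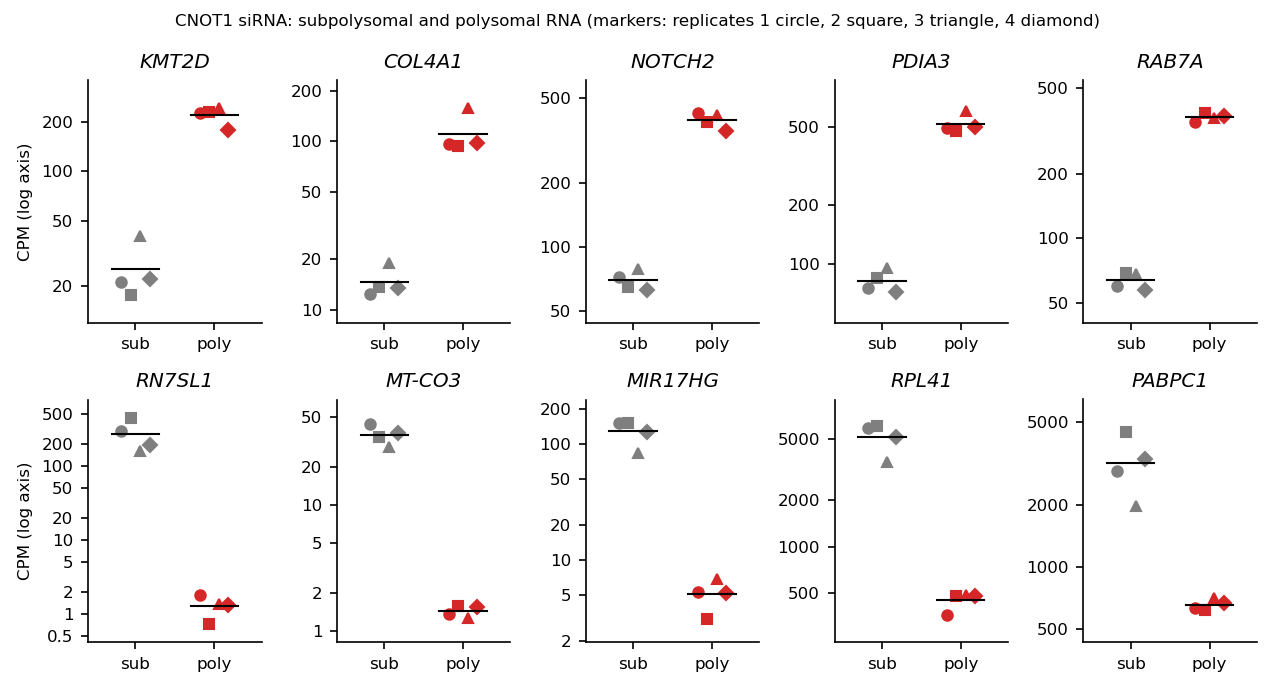
CPM of 10 genes in the 4 subpolysomal (grey) and 4 polysomal (red) libraries with CNOT1 siRNA, on log axes that differ between panels, with a black bar at each mean and the marker shape giving the replicate. The upper row shows genes higher and the lower row genes lower in polysomal RNA, and the groups do not overlap in any panel.

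Secreted and membrane proteins were higher in polysomes as groups, with control siRNA as well. The control medians were 0.85 for matrix genes, 1.35 for large receptors and 1.35 for chaperones of the endoplasmic reticulum. Of 50 basement membrane and matrix genes tested, 30 were higher and 1 lower, with a median log2 fold change of 0.98. Without replicate 3 these were 27, 0 and 0.78. The 1 lower gene, COL28A1, stayed under 0.5 CPM in all 8 libraries and was also not called without subpolysomal library 4 or polysomal library 2. LAMC1, the gamma 1 chain of laminins, was at 224, 208, 449 and 228 against 78, 81.6, 70.04 and 62.4 CPM, a log2 fold change of 1.92 (SE 0.18) or 1.60. As with the collagens, polysomal library 3 was the highest.

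Of 41 large cell surface receptors, 33 were higher and 2 (NOTCH4 and PLXND1) lower, with a median of 1.29, or 1.32 without replicate 3. IGF2R, which carries lysosomal enzymes and binds insulin-like growth factor II, was at 479, 394, 601 and 526 against 126, 117, 178 and 137 CPM (1.85, SE 0.22, or 1.76). Of 18 chaperones and folding enzymes of the endoplasmic reticulum, 12 were higher and 0 lower by edgeR, with a median of 1.07 or 1.04. The lectin chaperones CALR and CANX were both among the 12. CALR was at 916, 943, 889.9 and 935 against 218, 269, 233 and 197 CPM (2.00, SE 0.11, or 2.03) and CANX at 1022, 904, 1366 and 1007 against 454, 479.7, 406 and 344 CPM (1.35, SE 0.14, or 1.23). All 4 polysomal values were above all 4 subpolysomal ones for these receptors and chaperones.

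Cytoskeletal mRNAs went the same way, again with control siRNA too, at medians of 1.21 for giant cytoskeletal proteins and 1.71 for tubulins and actins. Of 15 giant cytoskeletal proteins 11 were higher and 0 lower, with a median of 1.29, or 1.04 without replicate 3. Among them, FLNA, the actin cross-linker filamin A, was at 766, 627, 897 and 564 against 163, 130.3, 293 and 238 CPM (1.79, SE 0.29, or 1.68), MYH9, nonmuscle myosin heavy chain, changed by 1.55 (SE 0.26) or 1.52, and PLEC, the linker plectin, by 1.83 (SE 0.37) or 1.82. Of 12 tubulins and actins 11 were higher and only TUBA1C was not called, with a median of 1.54 or 1.60. TUBB, a beta tubulin, was at 2598, 3054, 2564 and 2540.1 against 596, 754, 703 and 641 CPM (2.00, SE 0.11, or 2.03), and the log2 fold changes were 1.40 (SE 0.14) for ACTB and 2.02 (SE 0.15) for TUBA1A. Both the giant and the compact cytoskeletal proteins thus lay on the polysomal side, although their median coding lengths were 7809 nt and 1339.5 nt.

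Of 34 proteasome subunits 31 were higher and 0 lower, with a median of 1.34, or 1.37 without replicate 3. PSMB2, a beta subunit of the core particle, was at 292, 326, 364 and 297 against 65.8, 66.9, 75.7 and 64.4 CPM (2.23, SE 0.14, or 2.17). PSMD2, of the regulatory particle, was at 492, 564, 591 and 519.8 against 183, 194, 166 and 152 CPM (1.64, SE 0.10, or 1.61), and PSMB1 at 448, 479.6, 481 and 486 against 166, 165, 172 and 154 CPM (1.53, SE 0.09, or 1.53). All 8 subunits of CCT, the chaperonin that folds actin and tubulin, were higher, with a median of 1.31 or 1.35. CCT5 was at 1205, 1341, 1141 and 1254 against 391, 430.5, 346 and 339 CPM (1.71, SE 0.11, or 1.76), and the smallest change was that of TCP1, 0.49 (SE 0.15), whose groups overlapped through subpolysomal library 2 and polysomal library 3. Its call was lost with upper quartile factors and with library totals.

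Of 20 cytosolic aminoacyl-tRNA synthetases, which charge tRNAs with amino acids, 17 were higher and 0 lower by edgeR, with a median of 0.82 with or without replicate 3. EPRS, which charges tRNAs with glutamate and proline, was at 478, 425, 630.3 and 491 against 167, 151, 184 and 127 CPM (1.69, SE 0.23, or 1.57), TARS changed by 1.18 (SE 0.12) or 1.15, and IARS by 0.59 (SE 0.12) or 0.44. Cholesterol synthesis and uptake genes gave 19 of 23 higher and 0 lower, with a median of 0.92 or 0.79. Against the 34.1% of all genes that were called higher, each of these lists had a larger share.

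Proteins that work on RNA were mostly polysomal with marked exceptions. Of 35 SR proteins and hnRNPs, which package and splice pre-mRNA, 26 were higher and 3 (SRSF6, SRSF10 and SRSF12) lower, with a median of 0.89 or 0.91. HNRNPA2B1 was at 2377, 2458, 3168 and 2372 against 619.6, 651, 515 and 497 CPM (2.18, SE 0.12, or 2.08) and HNRNPAB at 677, 754, 559.5 and 683 against 135, 142, 134 and 133 CPM (2.30, SE 0.10, or 2.38). SRSF6 went the other way, at 278, 289.7, 289.7 and 299 against 602, 528, 422 and 534 CPM (-0.85, SE 0.11, or -0.84), although 13.4% of its exonic sequence is shared with another gene on the same strand.

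Of 42 translation initiation factors 29 were higher and 6 lower, with a median of 0.89, or 0.92 without replicate 3. The scaffold EIF4G1 was at 1515, 1450.3, 1355 and 1322 against 485, 506, 565 and 485 CPM (1.47, SE 0.14, or 1.50), its relative EIF4G2 changed by 1.08 (SE 0.10) or 1.10, and EIF3A, the largest subunit of eIF3, by 2.14 (SE 0.20) or 2.16. The lower ones were EIF1, EIF3L, EIF4A1, EIF4A2, EIF4E3 and EIF4EBP2. EIF4A2, a DEAD-box helicase linked to Ccr4-Not, was at 262, 236, 254 and 260.1 CPM in polysomal and 530.3, 553, 391 and 453 CPM in subpolysomal libraries, a log2 fold change of -0.93 (SE 0.11, FDR 4.5e-08) or -0.92. No value of one fraction fell inside the range of the other. For EIF4A1, the helicase of the cap-binding complex, the count was at 2.4, 1.48, 3.35 and 2.52 against 9.9, 9.15, 9.63 and 11.6 CPM (-2.05, SE 0.21, or -2.22). As 47.4% of its exonic sequence is shared with another gene on the same strand, reads there may not have been counted to it and this value is uncertain. The exonic sequence of EIF4A2 is shared to 10.4%.

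Of 12 subunits or partners of Ccr4-Not, 5 (CNOT2, CNOT3, CNOT6L, RQCD1 and TNKS1BP1) were higher and 2 (CNOT4 and CNOT7) lower, with a median of 0.28, or 0.22 without replicate 3, which fell to -0.02 with library totals. Over all genes 34.1% were higher and 34.7% lower, and of 13335 protein-coding genes 5506 were higher and 3435 lower. CNOT3, a noncatalytic subunit, was at 177, 197, 108 and 148 against 52.6, 58.1, 77 and 61.6 CPM (1.34, SE 0.18, or 1.49), and polysomal library 3 was the lowest. CNOT7, one of the deadenylases, was at 114, 118, 182 and 124 against 247, 282, 201 and 208 CPM (-0.80, SE 0.18, FDR 0.0003, or -0.97), and there polysomal library 3 was the highest. RQCD1 changed by 0.40 (SE 0.08) or 0.47. CNOT4 was at 40.0, 38.5, 33.1 and 39.4 against 45.5, 52.4, 45.4 and 47.2 CPM (-0.34, SE 0.13, FDR 0.031, or -0.27) and was not called without polysomal library 3, where CNOT1 itself took its place among the lower ones. Without subpolysomal library 2 or 4 or polysomal library 2, 1 member was lower.

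Decapping, P-body and other mRNA decay factors, among them the deadenylases PAN2, PAN3 and PARN, gave 7 of 15 higher and 2 (LSM14A and LSM1) lower. Without replicate 3 these were 6 and 3. Over all genes 34.1% were higher and 34.7% lower, and of 13335 protein-coding genes 5506 were higher and 3435 lower. The list median was 0.23 or 0.26, near the 0.20 of protein-coding genes. It was -0.02 with upper quartile factors and -0.07 with library totals. The decapping enzyme DCP2 was at 132, 114, 230.3 and 107 against 82.9, 70.2, 69.1 and 61.4 CPM (1.04, SE 0.19, or 0.74) and LSM14A at 160.1, 166, 185 and 166 against 279, 346, 196 and 242 CPM (-0.65, SE 0.14, or -0.69). DDX6, the DEAD-box helicase that binds CNOT1, was at 161, 139, 225 and 150.2 CPM in polysomal and 158, 161, 116 and 140.5 CPM in subpolysomal libraries, a log2 fold change of 0.23 (SE 0.14, FDR 0.15), or 0.07 without replicate 3. Its groups overlapped, and the value changed sign with the scaling.

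Ribosomal protein mRNAs lay on the subpolysomal side. Of 47 proteins of the large subunit 1 (RPL3) was higher and 24 were lower, with or without replicate 3, with a median log2 fold change of -0.39 or -0.40. Of 32 proteins of the small subunit 1 (FAU) was higher and 22 lower, or 23 without replicate 3, with a median of -0.59 or -0.65. These shares exceed the 34.7% of all genes called lower. Together the large subunit mRNAs took 3.73% ± 0.30 (SD, n = 4) of all counts in polysomal and 6.64% ± 0.31 in subpolysomal libraries, and the small subunit mRNAs 2.30% ± 0.19 and 4.51% ± 0.25. Library totals, which set no centre, gave 38 large subunit genes lower in place of 24, and libraries 3 and 4 alone 14. Many ribosomal protein genes have processed pseudogenes, and reads that match both could have been split or dropped in the authors' counting.

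The 5′ ends show how alike and how different these mRNAs are. The first 20 nt of the annotated GENCODE transcript on GRCh37 follow for members at both ends of the range, chosen because each was named by level or fold change. Capitals mark the run of pyrimidines that begins with the C at the first base.
RPL41: CTCTCggccttagcgccatt
RPL3: CTCTaccggcgggatttgat
RPL36A: CTTTCTTTCCgcgccgatag
RPS2: CTTCTTTTCCgacaaaacac
FAU: CTCTTTCTCgactccatctt
EEF1A1: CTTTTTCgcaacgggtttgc
NPM1: CTTTCCCTggtgtgattccg
The first bases lie at chr12:56510417-56510436 (plus strand) for RPL41, chr22:39715609-39715628 (minus) for RPL3, chrX:100645999-100646018 (plus) for RPL36A, chr16:2014808-2014827 (minus) for RPS2, chr11:64889587-64889606 (minus) for FAU, chr6:74230736-74230755 (minus) for EEF1A1 and chr5:170814853-170814872 (plus) for NPM1, all in the first exon. A start with C and at least 4 further pyrimidines was found in 35 of 47 large subunit mRNAs (74.5%), 25 of 32 small subunit mRNAs (78.1%) and 713 of all 13329 tested genes with a coding transcript (5.35%). Transcript starts were taken as annotated and may differ from those used in these cells.

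mRNAs with such pyrimidine starts covered a wide range of fold changes, as RPL41 and FAU show. RPL3, with a run of 4, and RPL4, which does not start with C, fall outside that definition. RPL41, the shortest of the ribosomal proteins with a coding sequence of 78 nt, was at 358, 481, 483 and 481 CPM in polysomal and 5907, 6036, 3565 and 5132 CPM in subpolysomal libraries, a log2 fold change of -3.52 (SE 0.21, FDR 5.8e-13) or -3.54. RPL36A changed by slightly more, at 5.18, 4.41, 8.56 and 7.11 against 86.4, 86.8, 60.1 and 73.9 CPM (-3.61, SE 0.20, or -3.77). The level of RPL36A was far below those of RPL41 and RPS2. Reads of it may have been dropped in the authors' counting, so its value is uncertain. RPS2 was at 704, 789, 822 and 649 against 3169, 3147, 2570.3 and 3708 CPM (-2.09, SE 0.18, or -2.13), with 25.9% of its exonic sequence shared with another gene. For each of the 3, all polysomal values lay below all subpolysomal ones.

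At the other end, RPL3, a core protein of the large subunit, was at 1706, 1926, 2297 and 1638 against 1379, 1352, 1462 and 1561 CPM (0.40, SE 0.13, FDR 0.0089), and without replicate 3 at 0.30 (FDR 0.044). The call was lost with upper quartile factors (0.13), with library totals (0.09) and when the 7 other compared libraries were fitted alone (0.24), while without subpolysomal library 1 or polysomal library 1, 2 large subunit genes were higher. FAU, which encodes a ubiquitin-like protein fused to a ribosomal protein, was at 253, 271, 212 and 185 against 88.1, 73.1, 156 and 124 CPM (1.06, SE 0.26, FDR 0.0008, or 1.11). RPL4, at 2243, 2737, 2616 and 2483 against 3574, 3815, 2826 and 3036 CPM (-0.39, SE 0.11, FDR 0.0023, or -0.40), was typical of the large subunit, as its value is the list median. Polysomal levels of RPL4 were below its subpolysomal levels in every pair of libraries, but by much less than for RPL41.

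The median log2 fold change was -1.42 for 9 ribosomal proteins with up to 300 nt, -0.46 for 48 with 300 to 600 nt, -0.29 for 19 with 600 to 900 nt and -0.39 for 3 with 900 to 1500 nt. Other genes of the same lengths had medians of -0.58 (n = 247), 0.07 (n = 1268), 0.25 (n = 1769) and 0.18 (n = 3673). Ribosomal protein mRNAs were thus lower than other genes within each of these length bins, by 0.5 or more on the log2 scale.

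Of 17 other TOP mRNAs tested, 3 (HNRNPA1, NPM1 and VIM) were higher and 4 (EEF1A1, PABPC1, TPT1 and EIF3L) lower, with a median of 0.02, or 0.03 without replicate 3, and the sign of that median changed with the scaling. Without subpolysomal library 3, 5 were higher. EEF1A1, the elongation factor that brings tRNA to the ribosome, was at 8265, 9625, 13714 and 9317 against 18952, 20969.7, 13576 and 16458 CPM (-0.77, SE 0.17, FDR 0.00032, or -0.94). Its groups overlapped only through polysomal library 3. PABPC1, the cytoplasmic poly(A) binding protein, was at 633, 621, 706 and 668 against 2900.2, 4496, 1964 and 3334 CPM (-2.27, SE 0.20, FDR 3.6e-10, or -2.30). NPM1, a nucleolar chaperone, was at 2692, 2936, 2618 and 2702 against 899, 1020.4, 863 and 729 CPM (1.64, SE 0.12, FDR 1.6e-11, or 1.67). The other TOP mRNAs thus spanned from well below to well above the median of all genes.

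The ribosomal protein and TOP mRNAs had the largest median differences from control siRNA among the 31 lists, at 0.84, 0.87 and 0.88 for the large subunit, the small subunit and the other TOP mRNAs, against 0.05 for all genes. Without both polysomal libraries numbered 3 these were 0.66, 0.65 and 0.83, against 0.07. The test of that difference, the ratio with CNOT1 siRNA over the ratio with control siRNA, called 547 genes with a higher ratio (3.26%) and 402 with a lower ratio (2.4%) with all libraries. Without both polysomal libraries numbered 3 it called 1709 (9.99%) and 1285 (7.51%) of 17115. Of the 47 large subunit genes 31 had a higher ratio with CNOT1 siRNA and 0 a lower one, and the same counts, 31 and 0, came without both libraries. For the 32 small subunit genes the counts were 20 and 0 in both fits, and for the 17 other TOP mRNAs 12 and 0, or 11 and 0. In libraries 1 and 2 alone the counts were 24, 12 and 12 higher and 0 lower in each list, and no list had a lower count above 0 under RLE or upper quartile factors or with DESeq2. Control siRNA had a median log2 fold change of -1.26 for the large subunit, -1.58 for the small subunit and -0.85 for the other TOP mRNAs, against -0.39, -0.59 and 0.02 with CNOT1 siRNA. Without both polysomal libraries numbered 3 the control medians were -1.09, -1.41 and -0.84, against -0.40, -0.65 and 0.04. The proteasome list, for comparison, had 0 genes with a differing ratio with all libraries and 0 higher and 3 lower without both. Other lists did differ from control. Of 35 SR proteins and hnRNPs 9 were higher and 0 lower, or 9 and 3 without both. For 42 initiation factors, some of them also on the TOP list, the counts were 8 and 0, or 12 and 6. For 80 respiratory chain subunits they were 1 and 2, or 3 and 32, and for 451 ZNF genes 29 and 1, or 53 and 8. Median differences with all libraries were 0.62 for mRNAs encoded in mitochondrial DNA and 0.50 for nuclear lncRNAs. They were 0.46 for small nucleolar and Cajal body RNAs, 0.30 for ZNF genes and 0.29 for small nucleolar RNA host genes. The lowest were -0.41 for histones and -0.25 for respiratory chain subunits. A rise over control was therefore not confined to the TOP lists.

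The medians by gradient show the separation without a model. The median log2 ratio of the large subunit mRNAs was -0.68, -0.39, -0.18 and -0.37 in gradients 1 to 4 with CNOT1 siRNA and -0.96, -1.13, -2.01 and -1.17 with control siRNA. For the small subunit the medians were -0.91, -0.56, -0.30 and -0.48 against -1.28, -1.45, -2.16 and -1.44, and for the other TOP mRNAs -0.13, -0.02, 0.19 and -0.05 against -0.84, -0.93, -0.96 and -0.89. All 4 CNOT1 siRNA values lay above all 4 control values in each list. In the ribosomal protein lists the gradients numbered 3 were the most extreme of both siRNAs, in opposite directions, and the other gradients did not overlap either. Libraries numbered 3 and 4 alone called 0 genes in the test of the difference (edgeR, 2612 at an unadjusted p under 0.05), and 626 once both polysomal libraries numbered 3 were left out as well.

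**Figure D4:**
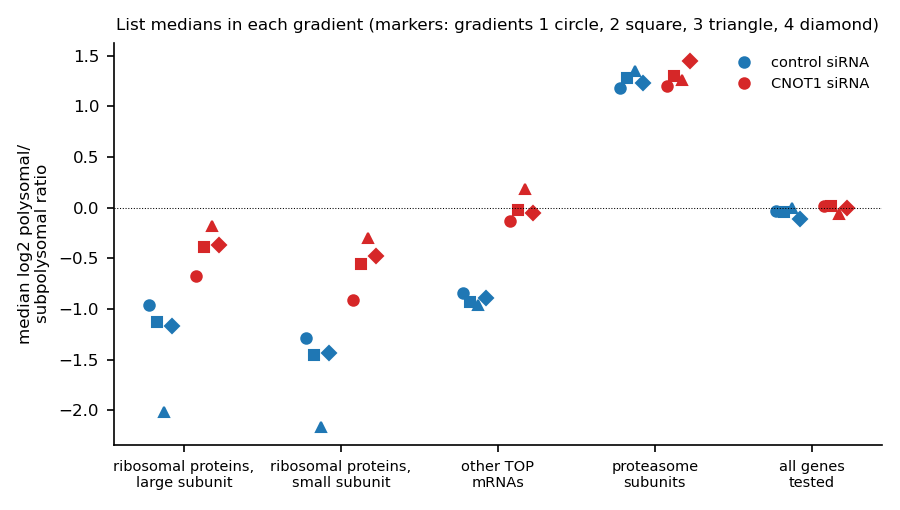
Median log2 polysomal/subpolysomal ratio (pseudocount 0.5 CPM) of 4 gene lists and of all genes tested, for each control siRNA (blue) and CNOT1 siRNA (red) gradient. The ribosomal protein and other TOP lists are higher with CNOT1 siRNA in every gradient, whereas the proteasome list and all genes overlap between the siRNAs.

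Single genes show both sides of this difference. For RPL4 the control log2 fold change was -1.56, from 2355, 2683, 2256 and 2524 CPM in polysomal and 6409, 8482, 6725 and 7433 CPM in subpolysomal libraries, and the difference between the siRNAs was 1.17 (SE 0.15, FDR 0.0001). The polysomal values of RPL4 overlapped between the siRNAs, and all 4 subpolysomal values were lower with CNOT1 siRNA than with control siRNA. PABPC1 had the same arrangement, at 575, 535, 674 and 601 CPM in polysomal and 7034, 10488, 4669 and 7112 CPM in subpolysomal libraries of control cells (-3.62), a difference of 1.35 (SE 0.27, FDR 0.0037). YBX1, an abundant mRNA-binding protein, was at 1204, 1272, 1561 and 1196 CPM in polysomal and 2909, 3965, 1816 and 3016 CPM in subpolysomal libraries with CNOT1 siRNA (-1.16, SE 0.19, or -1.25). With control siRNA its log2 fold change was -2.50, and the difference was 1.34 (SE 0.26, FDR 0.0035). TRIM45, a ubiquitin ligase family gene of low level, was at 5.62, 6.55, 5.58 and 6.55 against 12.7, 12.7, 7.97 and 9.07 CPM (-0.81, SE 0.17), with -2.26 in control cells and a difference of 1.45 (SE 0.24, FDR 0.0009).

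In the other direction, MKNK2, a kinase that phosphorylates the cap-binding protein eIF4E, was at 102, 91.6, 53.1 and 78.9 CPM in polysomal and 157, 168, 237 and 246 CPM in subpolysomal libraries (-1.31, SE 0.21, or -1.14), with 0.31 in control cells and a difference of -1.62 (SE 0.30, FDR 0.0023). JUND, a subunit of the transcription factor AP-1, was at 22.4, 21.3, 18.7 and 23.3 against 53.2, 64.1, 86.9 and 74.2 CPM (-1.70, SE 0.18, or -1.63), with -0.29 in control cells and a difference of -1.41 (SE 0.25, FDR 0.0014). All 4 polysomal values of MKNK2 and of JUND lay below all 4 subpolysomal ones after CNOT1 siRNA. LINGO1, a neuronal surface protein, had a ratio that differed from control by -1.40 (SE 0.35, FDR 0.019), with overlapping polysomal and subpolysomal values under CNOT1 siRNA. For HDHD3 the difference was 1.34 (SE 0.40, FDR 0.048) and was lost in most fits that left out 1 library. Without both polysomal libraries numbered 3, the differences of these genes were 1.37 for PABPC1, 1.10 for YBX1, 1.62 for TRIM45, -1.39 for MKNK2, -1.32 for JUND, -1.16 for LINGO1 and 2.02 for HDHD3.

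Nuclear genes for mitochondrial proteins were mostly polysomal, and the mitochondrial genome's own mRNAs were not. Of 74 mitochondrial ribosomal proteins 50 were higher and 10 lower, or 54 and 9 without replicate 3, with a median of 0.65 or 0.73. MRPL28 was at 101, 112, 73.6 and 69.4 against 19.4, 19.98, 28.4 and 25.8 CPM (1.93, SE 0.23, or 2.02), while MRPL37 changed by 0.44 (SE 0.10) and MRPS27 by 0.40 (SE 0.12), calls that were lost with upper quartile factors and library totals. Of 80 nuclear-encoded respiratory chain subunits 46 were higher and 10 lower, with a median of 0.56 with or without replicate 3. ATP5B, a catalytic subunit of ATP synthase, was at 1032, 1192, 1309 and 1089.7 against 414, 434, 363 and 363 CPM (1.55, SE 0.11, or 1.50), and UQCRC1 of complex III at 215, 241, 224 and 203 against 53.5, 48.5, 63.2 and 62.9 CPM (1.95, SE 0.14, or 1.96). UQCR11 and UQCRH of the same complex went the other way, with -1.43 (SE 0.21) for UQCR11, whose coding sequence has 171 nt, and -0.58 (SE 0.19) for UQCRH with 276 nt.

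All 12 mRNAs encoded in mitochondrial DNA that were tested were lower, with a median of -4.68 or -4.65. These mRNAs are translated inside mitochondria by the organelle's own ribosomes. MT-CO3, a cytochrome oxidase subunit, was at 1.35, 1.57, 1.26 and 1.56 CPM in polysomal and 44.4, 34.6, 28.9 and 37.1 CPM in subpolysomal libraries, a log2 fold change of -4.65 (SE 0.22, FDR 1.9e-14) or -4.59. The log2 fold changes were -5.30 (SE 0.25) for MT-ND2, -4.92 (SE 0.28) for MT-ATP8, -4.76 (SE 0.24) for MT-ATP6, -4.71 (SE 0.21) for MT-CO2 and -4.61 (SE 0.21) for MT-ND4. MT-RNR2, the large ribosomal RNA of the organelle, changed by -5.60 (SE 0.28) or -5.73. The mitochondrial mRNAs together took 0.00148% of counts in polysomal and 0.0296% in subpolysomal libraries.

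Noncoding RNAs gave the largest values of all. RN7SL1, a 7SL RNA of the signal recognition particle, was at 1.79, 0.742, 1.35 and 1.32 CPM in polysomal and 301, 442, 159.7 and 191 CPM in subpolysomal libraries (-7.71, SE 0.58, FDR 3.1e-11, or -7.72). Its copy RN7SL2 changed by -7.80 (SE 0.59), but all of its exonic sequence is shared with another gene and the 2 copies may not be told apart. All 6 of the 7SL, 7SK, RNase P and RNase MRP RNAs were lower, with a median of -6.91 or -7.26, and for RPPH1 and RMRP 3 of 4 polysomal libraries held 0 counts, so that their fitted values are not quoted. Of 88 rows for small nucleolar and Cajal body RNAs 85 were lower and 0 higher by edgeR, with a median of -3.41 or -3.55, among them SCARNA15 (-4.48, SE 0.25, or -4.68) and SNORD17 (-4.13, SE 0.30, or -4.55). Most of these RNAs have no poly(A) tail and were read from libraries selected for one, so the values describe the part that was captured.

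All 17 host genes of small nucleolar RNAs were lower, with a median of -2.86, or -3.20 without replicate 3. Their exons form spliced RNAs that leave the nucleus but code for no known long protein. SNHG5 was at 15.6, 17.3, 28.7 and 22.1 CPM in polysomal and 523, 509, 299 and 471 CPM in subpolysomal libraries (-4.43, SE 0.27, or -4.61), and SNHG16 at 137, 163, 181 and 166 against 1181, 1156, 939 and 1074 CPM (-2.75, SE 0.14, or -2.80). The smallest change was that of SNHG11, -1.28 (SE 0.15) or -1.30. MIR17HG (chr13:91999940-92049846), the host transcript of the miR-17-92 microRNA cluster, was at 5.27, 3.06, 6.79 and 5.15 against 153, 153, 83.6 and 126 CPM, a log2 fold change of -4.67 (SE 0.21, FDR 1.1e-14) or -4.83. In control cells it was -5.85, and the difference was 1.18 (SE 0.27, FDR 0.011), or 0.99 without both polysomal libraries numbered 3.

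Of 105 intergenic LINC transcripts 82 were lower and 4 (LINC00341, LINC00342, LINC00641 and LINC00846) higher, or 84 and 5 without replicate 3, with a median of -1.08 or -1.19. LINC00657, also called NORAD, was at 146, 145, 253 and 180.1 CPM in polysomal and 1368, 1473, 819 and 1151 CPM in subpolysomal libraries (-2.73, SE 0.19, or -2.93). LINC00665 showed one of the smaller called changes, -0.45 (SE 0.11) or -0.35. Of 273 antisense transcripts 218 were lower and 5 (AGAP2-AS1, ENTPD1-AS1, FLG-AS1, MAFG-AS1 and RPA3-AS1) higher, or 213 and 7, with a median of -1.40 or -1.44. Without subpolysomal library 1 or 2 or polysomal library 1 or 2, 3 were higher. OIP5-AS1 was at 40.3, 42.6, 84.8 and 45 against 455, 508, 313 and 364 CPM (-2.95, SE 0.26, or -3.26), FGD5-AS1 changed by -2.33 (SE 0.14) or -2.38 and MORF4L2-AS1 by -4.48 (SE 0.25) or -4.46. The setting for strand in the authors' counting was not stated, so reads of an antisense gene and its partner may not be separated.

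Transcripts known mainly from the nucleus were in the same range. MALAT1, MIAT, NEAT1, PVT1 and TUG1 were lower, KCNQ1OT1 was not called, and the median of the 6 was -2.58 or -2.69. NEAT1, the RNA of paraspeckles, was at 59.4, 47.4, 69.9 and 67.9 CPM in polysomal and 1184, 916, 553 and 904 CPM in subpolysomal libraries (-3.86, SE 0.20, or -3.92). TUG1 was at 142, 138, 201 and 152 against 404, 352, 285 and 363 CPM (-1.15, SE 0.13, or -1.27). RP11-77P6.2, a symbol without a match in the annotation and one of the 12 largest decreases, changed by -4.55 (SE 0.28) or -4.51.

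Replication-dependent histone genes, whose mRNAs normally end in a stem loop without a poly(A) tail, gave 18 of 26 lower and 2 (HIST1H1C and HIST1H2BK) higher, or 17 and 2 without replicate 3, with a median of -1.48 or -1.55. HIST1H2BJ was at 6.31, 3.41, 3.21 and 5.51 against 17.8, 8.53, 13.5 and 9.72 CPM (-1.43, SE 0.25, or -1.28). HIST1H2BK was at 87.3, 72.8, 53.3 and 85.7 against 38.2, 33.6, 55.9 and 33.6 CPM (0.89, SE 0.16, or 1.03) and its groups overlapped through library 3 of both fractions. Poly(A)-selected libraries hold a minor part of these mRNAs.

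Numbered ZNF genes, a large family of zinc finger repressors, gave 290 of 451 lower and 27 higher, or 295 and 30, with a median of -0.64 or -0.70. ZNF664 was at 239.7, 239, 517 and 248 against 509.9, 548, 401 and 454 CPM (-0.62, SE 0.23, FDR 0.019), and -0.97 without replicate 3, the library in which it was highest. Its call was lost without subpolysomal library 2 or polysomal library 1, 2 or 4, at an FDR of 0.056 to 0.074. ZNF622, which takes part in ribosome assembly, was an exception at 68.2, 68.8, 42 and 61.1 against 21, 22.2, 19.8 and 19.1 CPM (1.55, SE 0.15, or 1.70). Of 15 histone lysine methyltransferases 10 were higher and 1 (EZH2) lower, with a median of 0.60 or 0.63. Beside KMT2D, NSD1 changed by 0.61 (SE 0.13) or 0.63 and SETD5 by 0.44 (SE 0.09) or 0.42. EZH2 was at 80.7, 90.2, 98.7 and 92.6 against 125, 141, 99.4 and 97.7 CPM (-0.36, SE 0.12, FDR 0.011), and its call was lost without subpolysomal library 2 (-0.24, FDR 0.081) or polysomal library 1 (-0.29, FDR 0.051).

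Genes of the integrated stress response include several mRNAs with upstream open reading frames. Of 16 tested, 6 (ASNS, DDIT4, PHGDH, PSAT1, SESN2 and VLDLR) were higher and 6 (ATF4, ATF5, CEBPG, DDIT3, PPP1R15A and PPP1R15B) lower, shares near the 34.1% and 34.7% of all genes. All genes include noncoding RNAs. Of 13335 protein-coding genes, 5506 were higher and 3435 lower. ATF4, the central transcription factor, was at 219, 240.4, 368 and 353 CPM in polysomal and 768, 761, 833 and 918 CPM in subpolysomal libraries (-1.47, SE 0.17, FDR 5.1e-08, or -1.59). DDIT3 was at 8.06, 6.2, 4.47 and 8.39 against 22.6, 18.5, 35.4 and 23.2 CPM (-1.87, SE 0.33, or -1.71), and PPP1R15B, a phosphatase subunit that acts on eIF2, at 239, 212, 208 and 206 against 354, 269.8, 263 and 319.6 CPM (-0.48, SE 0.11, or -0.45). PHGDH, an enzyme of serine synthesis, was at 152, 179, 282 and 191 against 52.3, 56, 74.2 and 70.4 CPM (1.67, SE 0.17, or 1.47). The polysomal and subpolysomal values of these genes did not overlap.

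Most immediate early genes were not called, while most cyclins and their kinase inhibitors were higher. Of 18 immediate early genes 3 (IER5, KLF4 and MYC) were higher, 2 (FOSB and JUND) lower and 13 not called. These shares are below the 34.1% and 34.7% of all genes called higher and lower. The list median was 0.14, 0.10, -1.14 and -0.19 in gradients 1 to 4. Without subpolysomal library 3 or polysomal library 2 or 4, 1 was lower. MYC was at 2428, 2139, 1209.9 and 1648 against 1094, 1101, 1099 and 915 CPM (0.82, SE 0.19, or 0.99), and polysomal library 3 was the lowest of the polysomal ones. Of 16 cyclins and inhibitors of cyclin-dependent kinases 10 were higher and 3 (CCNG1, CCNG2 and CDKN3) lower, with a median of 0.55 or 0.52. The mitotic cyclins CCNB1, at 365, 419, 306 and 389 against 125, 133, 127 and 108 CPM (1.59, SE 0.11, or 1.68), and CCNA2 (1.89, SE 0.14, or 1.98) were among the higher ones. CCNG1, a target of p53, was at 93.9, 98.3, 154 and 101 against 545, 736, 359 and 514 CPM (-2.27, SE 0.23, or -2.45).

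Features of the mRNA were compared with the ratio over 13329 genes with a coding transcript, as a description across genes, which are not independent replicates. The 4 gradients again join libraries by their number only. The median log2 ratio rose with coding length, from -0.53 ± 0.10 (SD over 4 gradients) up to 300 nt (256 genes) to 0.04 ± 0.07 at 300 to 600 nt (1316 genes), then lay between 0.16 and 0.21 from 600 to 3000 nt, and reached 0.33 ± 0.06 at 3000 to 6000 nt (1596 genes) and 0.73 ± 0.03 above 6000 nt (388 genes). It fell with the number of ATG triplets in the annotated 5′UTR, from 0.30 ± 0.08 with 0 (7689 genes) and 0.10 ± 0.06 with 1 (2633 genes) to -0.15 ± 0.06 with 5 or more (764 genes). Spearman's rho across genes was 0.110 ± 0.019 for coding length and -0.154 ± 0.010 for the number of upstream ATG triplets, with the same sign in every CNOT1 siRNA gradient. Both are weak. Without polysomal replicate 3 they were 0.110 ± 0.024 and -0.156 ± 0.011. In control siRNA gradients 1 to 4 rho was -0.04, -0.01, 0.20 and 0.04 for coding length. For upstream ATG triplets it was -0.14, -0.14, -0.05 and -0.10 there.

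The 2 features were not separate. With a coding sequence of 600 to 900 nt, the median was 0.40 ± 0.09 in 1223 genes with no upstream ATG and -0.16 ± 0.04 in 565 genes with at least 1. Without polysomal replicate 3 these were 0.45 ± 0.01 and -0.15 ± 0.03. At 900 to 1500 nt the median with all libraries was 0.35 ± 0.10 (2200 genes) against -0.10 ± 0.06 (1476 genes). Above 6000 nt the medians were 0.75 ± 0.07 (132 genes) and 0.72 ± 0.07 (256 genes). The gradient medians of genes without and with upstream ATG triplets did not overlap in any bin from 300 to 3000 nt. Up to 300 nt they overlapped, at -0.44 ± 0.15 (189 genes) and -0.68 ± 0.10 (67 genes), as they did above 3000 nt. The GC content of the third position of codons gave rho values of 0.15, 0.21, -0.29 and -0.18 in gradients 1 to 4, which changed sign with the same split of libraries as above, so no direction is given for it.

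**Figure D5:**
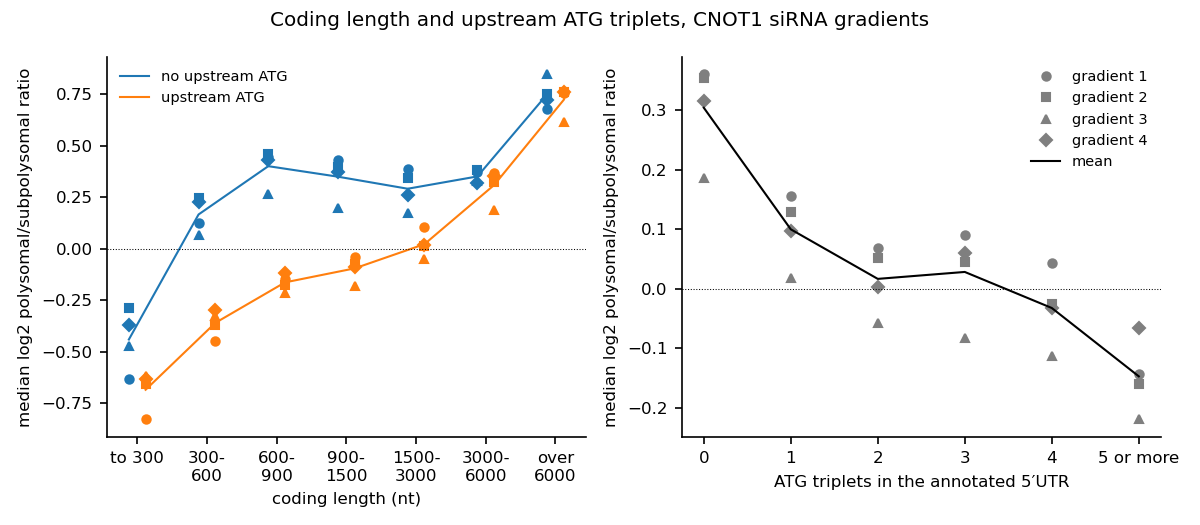
Median log2 polysomal/subpolysomal ratio with CNOT1 siRNA by coding length for genes without (blue) and with (orange) ATG triplets in the annotated 5′UTR (left), and by the number of such triplets (right). Markers are the 4 gradients and lines join their means. The median rises from -0.44 to 0.75 with length in genes without upstream ATG, and the orange and blue lines meet above 3000 nt.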

How the data were processed

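HEK293 cells were transfected with siRNA, and RNA of pooled sucrose gradient fractions was extracted with TRIzol and made into stranded poly(A) libraries. The authors demultiplexed the reads with bcl2fastq 2.0, aligned them to hg19 with TopHat2 and counted them per gene symbol with htseq-count. These raw counts were deposited, 1 file per library, and the strand option is not given in the sources used here. A deposited table of the authors' own comparison (log2 fold changes, levels and p-values) was not used, and 0 columns belonged to other series.

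The counts were fitted with edgeR 4.0.16 (limma 3.58.1, R 4.3.3): TMM factors, the default expression filter, and the quasi-likelihood test with 1 mean for each of 6 groups over 24 libraries, FDR by Benjamini-Hochberg at 0.05. The unit of replication is the library (n = 4 per group, depth 15.9 to 40.7 M), and intervals cover the spread between libraries only. Fold changes of single gradients used log2(CPM + 0.5), and were summarised with pandas 2.3.3, numpy 2.4.6 and scipy 1.17.1 in Python 3.11.15. The test was tried on simulated counts. Gene positions, coding lengths and 5′ ends came from GENCODE 44 mapped to GRCh37: 33529 symbols matched by current and 1926 by older names, and 20310 were not placed.

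The members, gene lists and rules were chosen with earlier results of these data known. The genes named were CNOT1, EIF4A1, EIF4A2 and DDX6, the 12 largest changes in each direction called with and without polysomal replicate 3, at 10 CPM or more in the higher group and with no overlap between groups, the 2 members of each list with the highest level and those with the highest and lowest fold change, and the 4 largest differences from control in each direction. Of 135 genes taken by this rule, beside 2 that are not reported here, 104 were given with a fold change; list members under 10 CPM or not called were left out after their values were seen. CNOT4, COL28A1 and the members of small counts were named outside the rule. Alternatives were DESeq2 1.42.0, other scaling factors, no filter, fits of the compared libraries only, a replicate block, each library left out and, added later, subsets by library number. One endothelial marker was not used here.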

Additional observations from a re-analysis of the deposited data

Results flagged for a closer look

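Of 87 groups of 4 values that were screened for 1 value standing apart, 8 were flagged by Dixon's criterion, and chance alone flags about 1 in 20. In polysomal library 3, CNOT1 was at 631 CPM against 24 to 31.6 CPM in the other polysomal libraries with CNOT1 siRNA, COL4A1 at 156 CPM against 94.2 to 97.8 CPM, and COL4A2 at 154 CPM against 72.8 to 86.2 CPM. SMOC1 was at 4.99 CPM in subpolysomal library 2 and at 4.15 to 4.24 CPM in the others. MT-ATP6 was at 1.14 CPM in polysomal library 2 against 0.605 to 0.639 CPM, and at 15.2 CPM in subpolysomal library 3 against 21.8 to 22.4 CPM. MT-ND4 was at 2.05 CPM in polysomal library 1 against 2.49 to 2.56 CPM. The median log2 ratio of the small nucleolar RNA host genes was -2.11 in gradient 3 and -3.10, -3.07 and -2.94 in gradients 1, 2 and 4.

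The polysomal/subpolysomal log2 ratio differed between CNOT1 siRNA and control siRNA, by the edgeR test of the difference itself, for these genes. It was higher with CNOT1 siRNA by 1.18 for MIR17HG, 1.45 for TRIM45, 1.35 for PABPC1, 1.34 for HDHD3 and 1.34 for YBX1. It was lower for MKNK2 (-1.62), JUND (-1.41) and LINGO1 (-1.40). For RPL4 it was higher by 1.17. These differences kept their sign without both polysomal libraries numbered 3, and that of HDHD3 was there 2.02.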

How the results depend on the processing

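The counts of genes higher and lower in polysomal RNA stayed within 1.5 times of 5719 and 5817 under each alternative run, with the lowest at 4014 higher and 4035 lower. The count of genes whose ratio differed from control siRNA did not. With no filter 259 were higher and 650 lower. Without both polysomal libraries numbered 3 the total was 2994 (1709 and 1285), and DESeq2 gave 1482, of which 757 were lower. Leaving out 1 library at a time gave totals of 617 (without control subpolysomal library 1) to 2036 (without control polysomal library 3), with 349 to 1208 higher and 260 to 828 lower. Of the subsets chosen after seeing the data, libraries 1 and 2 alone gave 3750 (2039 and 1711), libraries 3 and 4 alone 0 (0 and 0, edgeR, with 2612 at an unadjusted p under 0.05), and the latter without both polysomal libraries numbered 3 gave 626, of which 279 were higher.

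Same-numbered libraries did not deviate together: the correlation of their deviations from the group means was -0.14, -0.08, -0.21 and -0.05 for gradients 1 to 4 with CNOT1 siRNA and -0.30, 0.15, -0.04 and -0.20 with control siRNA, so the numbers were not taken as pairs. A replicate block gave 5688 genes higher and 5817 lower, and for the difference from control 462 and 304, or without both polysomal libraries numbered 3, 3216 (1888 and 1328). The log2 ratio of CNOT1 under the block was -0.22, and -1.53 without both.

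The log2 ratio of CNOT1 ran from -1.51 (without polysomal library 3) to 1.52 (without polysomal library 2) when 1 library was left out. It was 1.13 and called with no filter, -1.51 without both polysomal libraries numbered 3, -1.57 in the 7 compared libraries alone, -1.69 in libraries 1 and 2 and -1.22 in libraries 3 and 4 without both. DDX6 turned to -0.024 with upper quartile factors, -0.069 with library totals and -0.072 in libraries 1 and 2. Of 103 named genes, 83 had the same direction and call under every alternative. The ribosomal protein and TOP lists had 0 genes with a lower ratio than control under every alternative of that test. The causes were not tested. Depth of 15.9 M or more in each compared library left genes under about 1 CPM with few counts.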
